A study of Mus musculus with 6 samples.

Results

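The genes described here encode 42 RNA-binding proteins of families with arginine in RGG or serine-arginine (RS) stretches. They were grouped as substrates of the arginine methyltransferase PRMT1, and whether each protein is a substrate was not tested here. The genes were taken by symbol from the table of exon counts of germinal centre-like B cells induced in culture (iGBs), which holds 39017 genes. All 42 were found once each, and all 42 passed the filter on low counts that left 18268 genes tested. They fall into 16 heterogeneous nuclear ribonucleoproteins (hnRNP), 14 FET and other RGG proteins, and 12 SR proteins. Splenic B cells came from mice carrying Cγ1-cre alone (Control, n = 3) or together with Prmt1 F/F (Prmt1-null, n = 3), all of the C57BL6/J strain and with 2 females and 1 male in each group. The cells were grown for 3.5 days on 40LB feeder cells, which provide CD40L and BAFF, with IL-4. The study's results text names a later day than the labels and methods. The labels give 5 ng/ml IL-4 and the study's methods a lower dose, and the age of the mice is not given in the sources used here. Both groups carry the Cre transgene and went through the same culture and the same depletion of feeder cells, so the groups differ by the floxed Prmt1 alleles. Cγ1-cre is switched on by transcription of the Cγ1 constant region gene after activation, so that Prmt1 was present when the culture began, and cells in which it was not deleted may be included.

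PRMT1 is the main enzyme that places asymmetric dimethyl groups on arginine, and glycine- and arginine-rich (RGG) stretches of RNA-binding proteins are its best known substrates. hnRNP proteins coat nascent transcripts and often repress the use of splice sites. SR proteins carry an RNA recognition motif and an RS domain, bind exons and help recruit the spliceosome, and many of these genes adjust their own mRNA by splicing in exons that send it to nonsense-mediated decay. The counts measure mRNA only, and neither the methylation nor the amount of the proteins was measured in these files.

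The coding sequence shows how the classes differ. For each protein the complete coding sequence of greatest length in the annotation was translated, and RGG tripeptides and RS or SR dipeptides were counted. RGG occurred in 11 of the 16 hnRNP, 13 of the 14 FET and other RGG and 4 of the 12 SR proteins, with a maximum of 22 in Ewsr1 and 19 in Taf15, and 14 of the 42 proteins held none. RS and SR dipeptides ran from 9 in Srsf9 to 106 in Srsf4 within the SR class and from 2 to 9 within the hnRNP class. The stretch of 40 codons with the most RGG is shown for Hnrnpa1, the only RGG-bearing gene that passed the test described next, and for Taf15, which did not. Capitals mark codons that read RGG, 4 times in Hnrnpa1 (codons 195 to 234) and 6 times in Taf15 (codons 438 to 477).
Hnrnpa1, GRCm38 chr15:103242298-103242669, plus strand, spliced: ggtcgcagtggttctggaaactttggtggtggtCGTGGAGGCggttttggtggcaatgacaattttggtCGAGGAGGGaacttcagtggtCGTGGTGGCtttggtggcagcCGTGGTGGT
Taf15, GRCm38 chr11:83504782-83504901, plus strand: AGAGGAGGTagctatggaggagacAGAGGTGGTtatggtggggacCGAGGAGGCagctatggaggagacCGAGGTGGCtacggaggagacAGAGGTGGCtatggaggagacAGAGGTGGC

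The corresponding stretch with the most RS and SR is shown for Srsf10 and Tra2a, the SR genes that passed the test. Capitals mark codons of RS or SR, 14 dipeptides in Srsf10 (codons 118 to 157) and 17 in Tra2a (codons 45 to 84).
Srsf10, GRCm38 chr4:135863117-135863556, plus strand, spliced: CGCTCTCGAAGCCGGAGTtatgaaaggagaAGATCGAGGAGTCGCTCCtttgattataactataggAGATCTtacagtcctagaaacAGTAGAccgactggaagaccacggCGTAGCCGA
Tra2a, GRCm38 chr6:49250941-49252419, minus strand, spliced: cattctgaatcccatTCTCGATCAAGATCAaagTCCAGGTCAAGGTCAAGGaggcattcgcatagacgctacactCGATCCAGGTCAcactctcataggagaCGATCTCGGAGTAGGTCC

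Library totals ran from 45343250 to 62774232 counts, no pair of libraries was identical, and no member had a mean normalized count under 1000. Prmt1 itself had normalized counts of 3941, 3901 and 4809 in Control against 1734, 1469 and 1469 in Prmt1-null iGBs, 36.9% of the Control mean, and the labels of all libraries fitted this difference. The 8 B cell markers summed to between 10967 and 12338 CPM (counts scaled to library size) in Control and between 12042 and 12375 in Prmt1-null iGBs. The 8 fibroblast markers that stand for the feeder cells summed to between 14.7 and 19.3 CPM in Control and between 18.6 and 22.4 in Prmt1-null iGBs, with Postn at 0 in every library. Col1a1 made up most of that difference, with a mean of 353.5 ± 34.9 normalized counts in Control against 480.7 ± 58.5 in Prmt1-null iGBs (SD, n = 3, no overlap), and the part of feeder RNA in the results that follow was not tested. T cell markers summed to at most 2.97 CPM and myeloid markers to at most 5.97 CPM in any library. In these bulk libraries a change in the mix of cells and a change of RNA per cell cannot be told apart.

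Of the 42 genes, 3 passed the threshold for a difference between the groups, which was an adjusted p under 0.05 with more than 100 normalized counts on average. The adjusted p came from the quasi-likelihood test of edgeR and was adjusted over all genes tested (Benjamini-Hochberg). Hnrnpa1 rose, and Srsf10 and Tra2a fell. The same call was reached by 1.18% of all genes tested, by 0.580% as higher and by 0.602% as lower. Among the 7252 genes with a mean normalized count over 1000, the level that all 42 genes exceed, 170 (2.34%) were called. At an unadjusted p under 0.05, 3 of the 42 genes (7.14%) were higher in Prmt1-null iGBs beside 6.50% of all genes tested, and 6 of the 42 (14.3%) were lower beside 7.00% of all genes tested. The libraries of the groups stood apart without overlap for 13 of the 42 genes (31.0%), beside 19.9% of all genes tested.

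The differences were small. They ran from −0.39 to 0.45 on the log2 scale, and their median absolute size was 0.08, beside 0.09 for the 7252 genes over 1000 normalized counts. The median log2 fold change was 0.02 for the hnRNP, −0.02 for the FET and other RGG and −0.09 for the SR genes, beside −0.00082 for all genes tested. Of the hnRNP genes 10 had a positive and 6 a negative value, of the FET and other RGG genes 6 and 8, and of the SR genes 1 and 11. The sign of 14 of the 42 genes, all without a call, turned in at least 1 alternative, Srsf2, Srsf7 and Srsf9 among the SR genes, and these 14 had absolute log2 fold changes of at most 0.17. No test was made of a class as a whole.

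**Figure D1:**
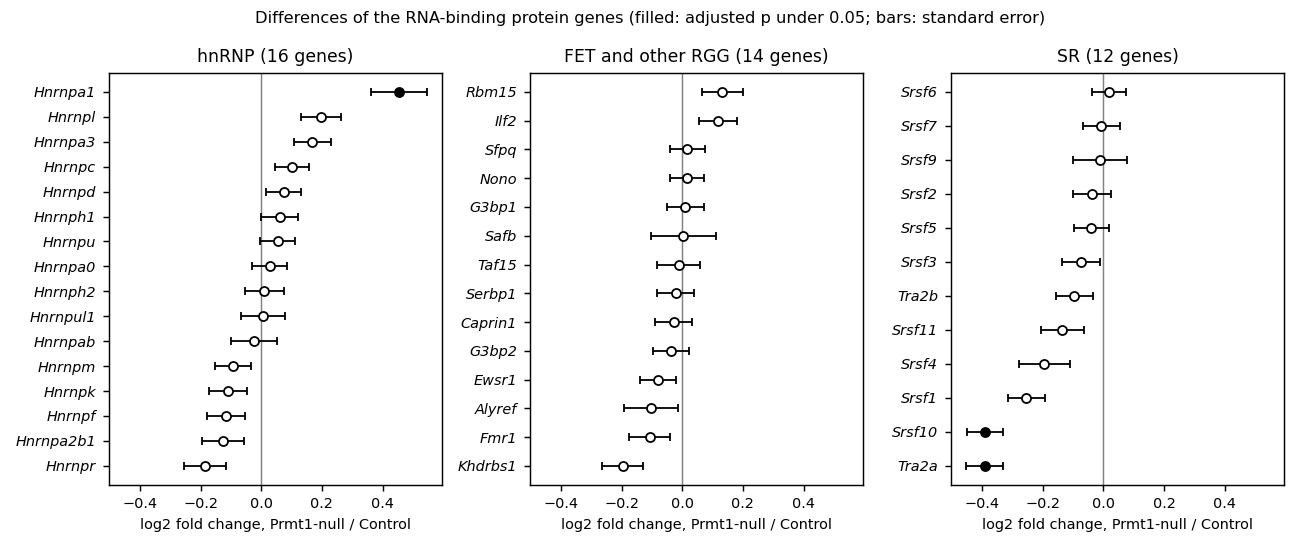
Log2 fold change of each gene between Prmt1-null and Control iGBs (x axis) by class, with points for edgeR's estimate, bars for its standard error and filled points for an adjusted p under 0.05. Hnrnpa1 stands at 0.45, Srsf10 and Tra2a at −0.39, and every other gene except Srsf1 lies within 0.2 of 0.

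hnRNP A1 is a splicing repressor that binds exonic and intronic silencers and counters SR proteins. Hnrnpa1 (ENSMUSG00000046434) lies on chromosome 15 of GRCm38 from 103240432 to 103246692 on the plus strand and shares no exon base with another gene. Its normalized counts were 7789, 8096 and 6372 in Control against 9508, 11447 and 9540 in Prmt1-null iGBs. Every Prmt1-null library was above every Control library, and the spread within groups was the widest of the 42 genes, with a coefficient of variation of 12.4% in Control against 10.9% in Prmt1-null iGBs. The means were 7419 ± 920 and 10165 ± 1110 (SD, n = 3), a level of 137.0% of Control and a log2 fold change of 0.45 (standard error 0.092, 95% interval 0.26 to 0.65, edgeR adjusted p = 0.033). The call was lost in 4 of the 6 fits that each left out 1 library: without Control replicate 2 the edgeR adjusted p was 0.0642, and without Prmt1-null replicate 1, 2 or 3 it was 0.0961, 0.186 and 0.0695, with log2 fold changes from 0.36 to 0.52 over the 6 fits.

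Hnrnpa1 has 9 annotated pseudogene copies of at least 95% identity over at least 200 bases, 7 of them in the count table, and the study kept reads that aligned to up to 2 places. Between 36.8% and 44.1% of the counts on the gene and its copies lay on the copies. Their summed level was 83.0, 104.0 and 90.8 CPM in Control against 125.3, 131.6 and 129.0 CPM in Prmt1-null iGBs. The copies were thus higher in every Prmt1-null library, as the gene was. With the copies' counts added to the gene, an alternative chosen after the data had been seen, the log2 fold change was 0.47 (edgeR adjusted p = 0.0112).

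Hnrnpa3 encodes the nearest relative of hnRNP A1 in this class. Its normalized counts were 6669, 7012 and 6765 in Control against 7446, 8118 and 7422 in Prmt1-null iGBs (log2 fold change 0.17, standard error 0.059, edgeR adjusted p = 0.21). The groups did not overlap, and the difference did not pass the threshold. Of its 26 annotated copies 20 were in the table, and these held between 50.2% and 61.6% of the counts. On the copies the order of the groups was the opposite, with 195.4, 195.0 and 165.1 CPM in Control against 155.4, 147.1 and 161.2 CPM in Prmt1-null iGBs. Adding them turned the log2 fold change to −0.07 (edgeR adjusted p = 0.698), so the direction of Hnrnpa3 depends on where its reads were counted.

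**Figure D2:**
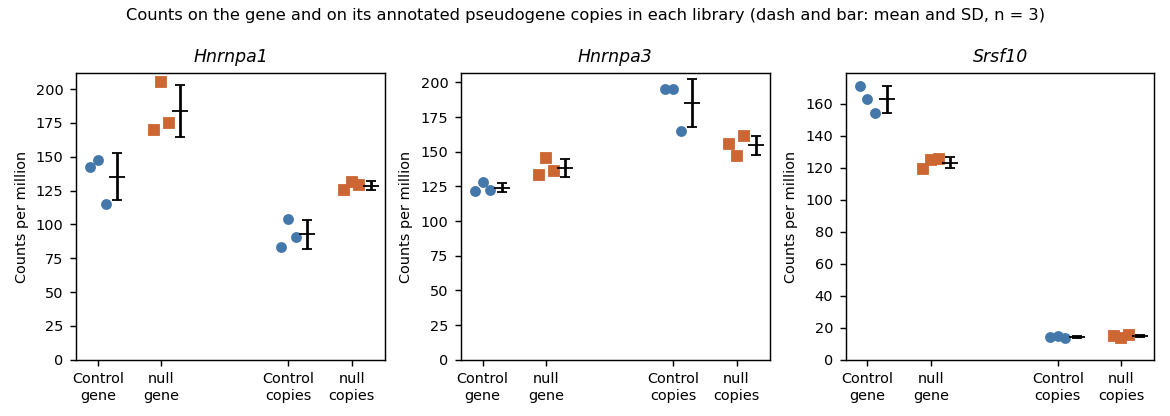
CPM (y axis) on Hnrnpa1, Hnrnpa3 and Srsf10 and on the sum of their annotated pseudogene copies in each library, with circles for Control, squares for Prmt1-null, and a dash and bar for mean and SD. Gene and copies are both higher in Prmt1-null iGBs for Hnrnpa1, move in opposite directions for Hnrnpa3, and for Srsf10 the copy stays between 13.7 and 15.5 CPM.

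The other hnRNP genes with the smallest p were Hnrnpl, Hnrnpr and Hnrnpf. hnRNP L binds CA-rich RNA, and Hnrnpl had normalized counts of 14557, 15670 and 16956 in Control against 17903, 17719 and 18423 in Prmt1-null iGBs (log2 fold change 0.20, standard error 0.066, edgeR adjusted p = 0.192). Hnrnpr, whose protein holds 8 RGG, had 3222, 3585 and 3265 in Control against 2948, 3083 and 2827 in Prmt1-null iGBs (log2 fold change −0.19, standard error 0.069, edgeR adjusted p = 0.234). hnRNP F binds G-rich RNA and has no RGG, and Hnrnpf had 10835, 11343 and 10833 in Control against 9496, 10534 and 10425 in Prmt1-null iGBs (log2 fold change −0.12, standard error 0.061, edgeR adjusted p = 0.44). Without Prmt1-null replicate 1 the value of Hnrnpf was −0.07. Control and Prmt1-null libraries were apart for each of these genes, and none passed the threshold in edgeR's test. DESeq2 called Hnrnpl with its own filtering (adjusted p = 0.0448) but not on the genes that passed edgeR's filter (adjusted p = 0.0509), and over all alternatives its adjusted p ran from 0.0448 to 0.41. Hnrnpf shares 26.4% of its exon bases with genes on the opposite strand, and 36.6% to 40.6% of the counts on it and its copies lay on the copies. Hnrnpc, Hnrnpm and Hnrnpu also had groups that did not overlap, at log2 fold changes of 0.10, −0.09 and 0.05. Of the 16 hnRNP genes, 5 were higher and 3 lower without overlap, beside 19.9% of all genes tested. The remaining 8 genes, Hnrnpa2b1, Hnrnpk, Hnrnpd, Hnrnph1, Hnrnpa0, Hnrnpab, Hnrnph2 and Hnrnpul1, had overlapping groups and log2 fold changes from −0.13 to 0.07. Of these Hnrnpab, the hnRNP gene with the highest level per kilobase, had 13970, 13559 and 11621 in Control against 11929, 13126 and 13444 in Prmt1-null iGBs (log2 fold change −0.02).

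Among the 14 FET and other RGG genes 0 were called by edgeR, by DESeq2 or by limma-voom. EdgeR called 1.18% of all genes tested. An unadjusted p under 0.05 was reached by 1 of the 14, as lower, beside 7.00% of all genes tested. It was also the only gene of the class with groups that did not overlap, beside 19.9% of all genes tested. That gene was Khdrbs1, which encodes Sam68, a signal-regulated splicing factor. Its normalized counts were 11845, 11818 and 10236 in Control against 9671, 10045 and 9856 in Prmt1-null iGBs (log2 fold change −0.20, standard error 0.066, edgeR adjusted p = 0.191). With all 6 libraries it was not called. Without Control replicate 3, the lowest of its group, the value was −0.26 and it passed (edgeR adjusted p = 0.0406). In that fit 340 of all genes tested were called, in place of 216.

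Ewsr1 and Taf15 encode FET proteins, which carry the longest RGG regions of the set, bind RNA polymerase II and nascent RNA, and form condensates. Ewsr1 had normalized counts of 7387, 7235 and 7928 in Control against 6875, 7155 and 7320 in Prmt1-null iGBs (log2 fold change −0.08, 95% interval −0.21 to 0.05, edgeR adjusted p = 0.618). Taf15 had 2802, 2683 and 2489 in Control against 2683, 2628 and 2598 in Prmt1-null iGBs (log2 fold change −0.01, 95% interval −0.16 to 0.14, edgeR adjusted p = 0.964). The groups overlapped for both genes, and neither interval held a change as large as that of Hnrnpa1, Srsf10 or Tra2a.

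Of the other members of this class, Rbm15, whose protein guides the m6A writer to RNA, had normalized counts of 3625, 4202 and 3724 in Control against 4095, 4287 and 4272 in Prmt1-null iGBs (log2 fold change 0.13, edgeR adjusted p = 0.427). Ilf2, which encodes the NF45 partner of the double-stranded RNA-binding protein NF90, had 4620, 4359 and 4167 in Control against 4590, 4654 and 5008 in Prmt1-null iGBs (log2 fold change 0.12, edgeR adjusted p = 0.456). Fmr1, which encodes the translational regulator FMRP, had 3780, 3698 and 3318 in Control against 3272, 3428 and 3316 in Prmt1-null iGBs (log2 fold change −0.11, edgeR adjusted p = 0.526). The groups overlapped for all of these. The paraspeckle protein gene Nono had the smallest relative range of the class members shown here, with 17461, 18142 and 18018 in Control against 18340, 17875 and 17965 in Prmt1-null iGBs (log2 fold change 0.01). Safb, whose protein binds scaffold attachment DNA as well as RNA, had the lowest counts of the 42 genes, 1291, 1367 and 1591 in Control against 1295, 1405 and 1559 in Prmt1-null iGBs (log2 fold change 0.00344, standard error 0.107). The stress granule genes G3bp1, G3bp2 and Caprin1, and Sfpq, Serbp1 and Alyref, had log2 fold changes from −0.10 to 0.02 with overlapping groups. G3bp2 shares 23.7% of its exon bases with Gm26582 on the opposite strand.

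Among the 12 SR genes 2 were called, both lower, beside 0.602% of all genes tested. An unadjusted p under 0.05 was reached by 4 of the 12, all lower, beside 7.00% of all genes tested, and the same 4 were those whose groups did not overlap, beside 19.9%. Among genes with a mean normalized count over 1000, as all of these have, 2.34% were called in either direction. At that level the shares for an unadjusted p and for no overlap were not counted. Srsf10 encodes an SR protein that acts as a splicing repressor when dephosphorylated, as after heat shock. Srsf10 (ENSMUSG00000028676) lies on chromosome 4 of GRCm38 from 135855747 to 135869908 on the plus strand and shares no exon base with another gene. Its normalized counts were 9359, 8923 and 8520 in Control against 6659, 6948 and 6837 in Prmt1-null iGBs. The gap between the groups was wider than the range within either. The means were 8934 ± 420 and 6815 ± 146 (SD, n = 3), a level of 76.3% of Control and a log2 fold change of −0.39 (standard error 0.059, 95% interval −0.52 to −0.26, edgeR adjusted p = 0.0061). A pseudogene copy, Gm5446, held 7.8% to 11.0% of the counts and stood at 14.4, 15.02 and 13.7 CPM in Control against 14.7, 13.9 and 15.5 CPM in Prmt1-null iGBs. With its counts added to the gene the log2 fold change was −0.35 (edgeR adjusted p = 0.011).

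Tra2a and Tra2b encode the homologues of the fly Transformer-2 protein, which bind exonic enhancers. Tra2a (ENSMUSG00000029817) lies on chromosome 6 of GRCm38 from 49243924 to 49264033 on the minus strand, shares no exon base with another gene and has no pseudogene copy by the rule used. Its normalized counts were 8262, 7605 and 7377 in Control against 5687, 5992 and 6043 in Prmt1-null iGBs. Every Prmt1-null library was below every Control library. The means were 7748 ± 459 and 5908 ± 193 (SD, n = 3), a level of 76.2% of Control and a log2 fold change of −0.39 (standard error 0.061, 95% interval −0.52 to −0.26, edgeR adjusted p = 0.00801). Tra2b had 6928, 7269 and 6412 in Control against 6286, 6481 and 6516 in Prmt1-null iGBs, which overlapped (log2 fold change −0.10, standard error 0.061, edgeR adjusted p = 0.536). The calls of Srsf10 and Tra2a were lost with 2 mice in the Prmt1-null group in some fits: without Prmt1-null replicate 1 the edgeR adjusted p was 0.0614 for Srsf10 and 0.0724 for Tra2a, and without Prmt1-null replicate 2 it was 0.0556 and 0.0674. The log2 fold changes over the 6 fits that each left out 1 library ran from −0.42 to −0.35 for Srsf10 and from −0.42 to −0.34 for Tra2a.

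Srsf1, which encodes the archetypal SR protein, had normalized counts of 19532, 19470 and 18338 in Control against 15325, 16304 and 16460 in Prmt1-null iGBs. The groups were apart, with a level of 83.9% of Control and a log2 fold change of −0.25 (standard error 0.061, edgeR adjusted p = 0.0628), just outside the threshold. DESeq2 (adjusted p = 0.000802) and limma-voom (adjusted p = 0.0316) called it, and over all alternatives the adjusted p ran from 0.000802 to 0.283. In edgeR's test it passed with all 6 libraries when sex was a covariate (adjusted p = 0.0409), GC and length trends were removed (adjusted p = 0.0272) or low counts were not filtered (adjusted p = 0.0103), and also without Control replicate 3 (adjusted p = 0.0405).

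Srsf4 and Srsf6 encode closely related SR proteins with long RS domains. Srsf4 had 1907, 2075 and 2241 in Control against 1776, 1842 and 1821 in Prmt1-null iGBs (log2 fold change −0.19, standard error 0.083, edgeR adjusted p = 0.317). Srsf4 shares 43.0% of its exon bases with Gm12992 on the opposite strand, which had 1834, 2064 and 2058 normalized counts in Control against 1622, 1689 and 1650 in Prmt1-null iGBs, and since the strand setting of the counting is not given, reads of the pair cannot be told apart. Srsf6 had 8416, 8460 and 8690 in Control against 8715, 8667 and 8514 in Prmt1-null iGBs (log2 fold change 0.02). Srsf11, whose protein bridges splice sites, had 7791, 7363 and 6964 in Control against 7131, 6907 and 6103 in Prmt1-null iGBs (log2 fold change −0.14, edgeR adjusted p = 0.428), with overlap, and without Prmt1-null replicate 3 the value was −0.07. Srsf2, which encodes an exon-binding SR protein found in nuclear speckles, had 13092, 12186 and 11718 in Control against 11452, 12028 and 12572 in Prmt1-null iGBs (log2 fold change −0.04). The other SR genes, Srsf3, Srsf5, Srsf7 and Srsf9, had overlapping groups and log2 fold changes from −0.07 to −0.00638.

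**Figure D3:**
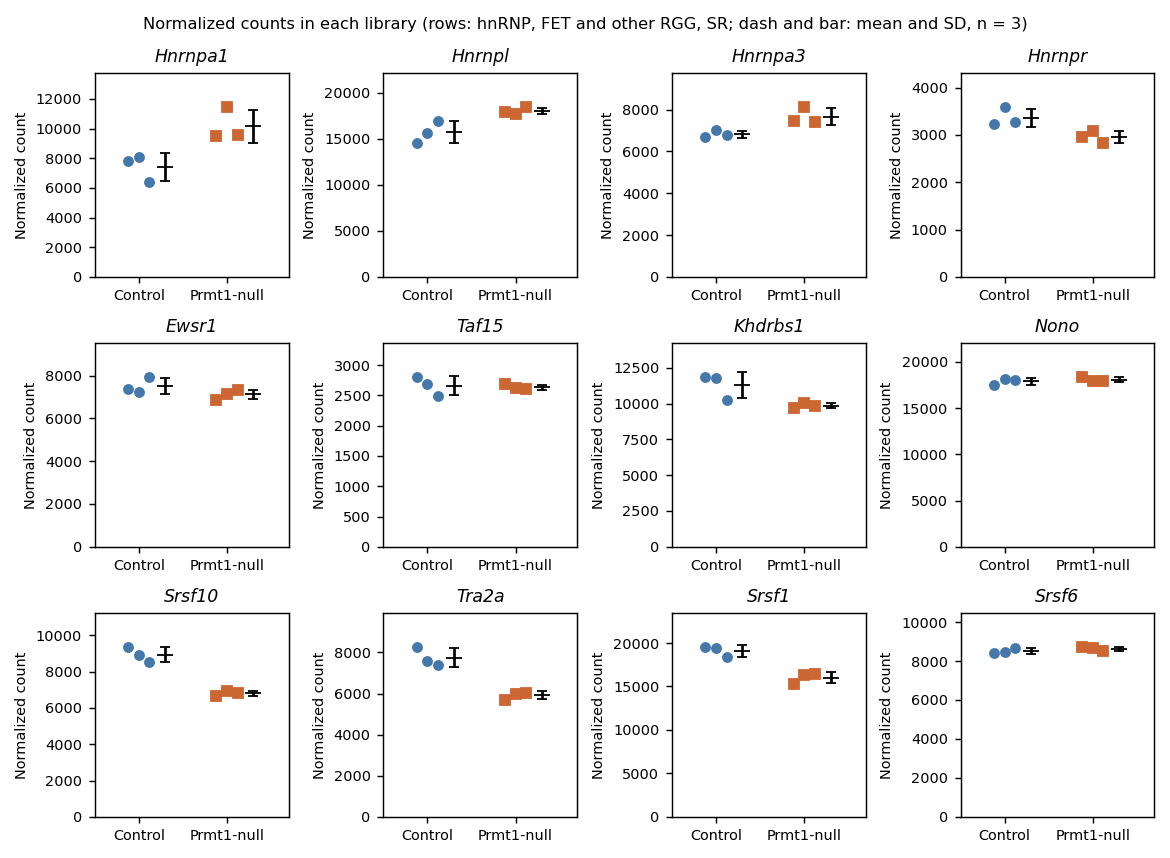
Normalized counts (y axis, from 0) of 12 genes in each library, 4 of each class, with circles for Control, squares for Prmt1-null, and a dash and bar for mean and SD. The groups are apart for Hnrnpa1, Srsf10, Tra2a and Srsf1 and overlap for Ewsr1, Taf15, Nono and Srsf6.

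Summed over the class, the 12 SR genes took 1824, 1788 and 1687 CPM in Control against 1539, 1585 and 1626 CPM in Prmt1-null iGBs. The Prmt1-null libraries were below the Control libraries. Without Srsf1, Srsf10 and Tra2a, left out after their values were seen, the other 9 SR genes took 1146, 1131 and 1068 CPM in Control against 1044, 1060 and 1087 CPM in Prmt1-null iGBs, and these groups overlapped. The 16 hnRNP genes took 3389, 3433 and 3288 CPM in Control against 3338, 3462 and 3472 CPM in Prmt1-null iGBs, and the 14 FET and other RGG genes took 2488, 2546 and 2367 CPM in Control against 2337, 2398 and 2491 CPM in Prmt1-null iGBs. These sums overlapped. Within groups the median coefficient of variation of the 42 genes was 5.53% in Control against 2.79% in Prmt1-null iGBs, and 32 of the 42 varied more in Control. The 42 genes share the same libraries, and the share over all genes tested was not counted.

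Levels were compared between genes as TMM-scaled counts per kilobase of annotated exon, relative to library size (CPM per kilobase). In Control iGBs the hnRNP genes had a median of 43.2, with Hnrnpab (85.1 ± 8.18, SD) and Hnrnpa0 (81.6 ± 2.72) at the top, which did not differ beyond their spread, and Hnrnpr at the bottom (2.74 ± 0.162). The FET and other RGG genes had a median of 19.8, from Nono (74.1 ± 1.503) to Safb (3.54 ± 0.390), and the SR genes a median of 21.7, from Srsf2 (75.6 ± 4.28) to Srsf4 (10.6 ± 0.850). The corresponding medians in Prmt1-null iGBs were 43.2, 19.1 and 19.5. The order depends on the length used. By the length of the transcript with the longest coding sequence, chosen after the data had been seen, Srsf1 came first among the SR genes (287 in Control). Among the hnRNP genes Hnrnpa2b1 (166) and Hnrnpab (165) were at the top and did not differ beyond their spread, and Hnrnpr was at 22.7. Hnrnpab shares 29.1% of its exon bases with Phykpl on the opposite strand, and Srsf2 shares 25.3% with genes on the opposite strand.

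**Figure D4:**
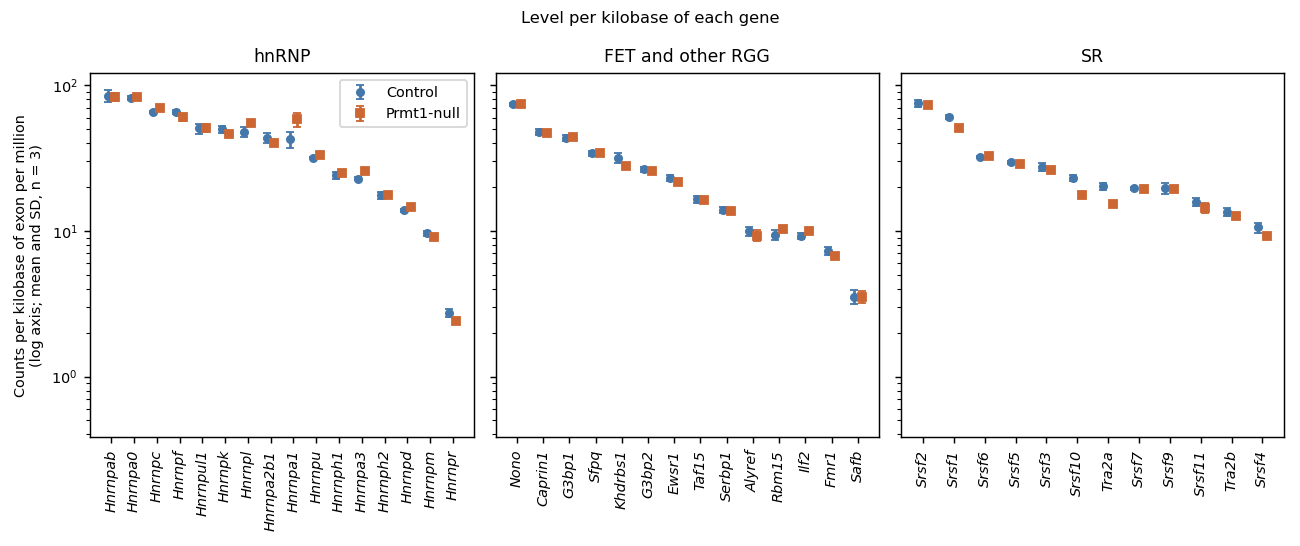
TMM-scaled CPM per kilobase of exon (y axis, log scale) of each gene by class, as mean and SD of 3 libraries, with circles for Control and squares for Prmt1-null. Levels span from 2.74 for Hnrnpr to 85.1 for Hnrnpab in Control, and the Control and Prmt1-null points lie close together for most genes.

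The ratio of 2 related genes within a library needs no normalization, and 8 pairs were compared by an exact permutation test (two-sided, 20 arrangements of the libraries), which cannot give a p under 0.10. Of the 8 pairs, 3 had ratios that did not overlap (exact p = 0.10, Benjamini-Hochberg adjusted p = 0.267 for each). Tra2a/Tra2b was 1.19, 1.05 and 1.15 in Control against 0.905, 0.925 and 0.927 in Prmt1-null iGBs. By raw counts, which do not allow for length, Tra2a was thus the more counted gene in each Control library and Tra2b in each Prmt1-null library. The mean difference was −0.30 on the log2 scale, and −0.25 with the copies of Tra2b added. With those copies the ratio was under 1 in all libraries and still did not overlap. Per kilobase of exon, without copies, Tra2a stood above Tra2b in both groups. The mean CPM per kilobase was 20.2 against 13.5 in Control and 15.4 against 12.6 in Prmt1-null iGBs. Hnrnpa1/Hnrnpa3 was 1.17, 1.15 and 0.942 in Control against 1.28, 1.41 and 1.29 in Prmt1-null iGBs, a difference of 0.29 that became 0.53 with the copies of both genes added and 0.19 without Control replicate 3. Srsf4/Srsf6 was 0.227, 0.245 and 0.258 in Control against 0.204, 0.212 and 0.214 in Prmt1-null iGBs, a difference of −0.21. The other pairs, Hnrnph1/Hnrnph2, Hnrnpd/Hnrnpab, Ewsr1/Taf15, G3bp1/G3bp2 and Sfpq/Nono, had overlapping ratios and differences from −0.07 to 0.09 (exact p from 0.3 to 1).

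**Figure D5:**
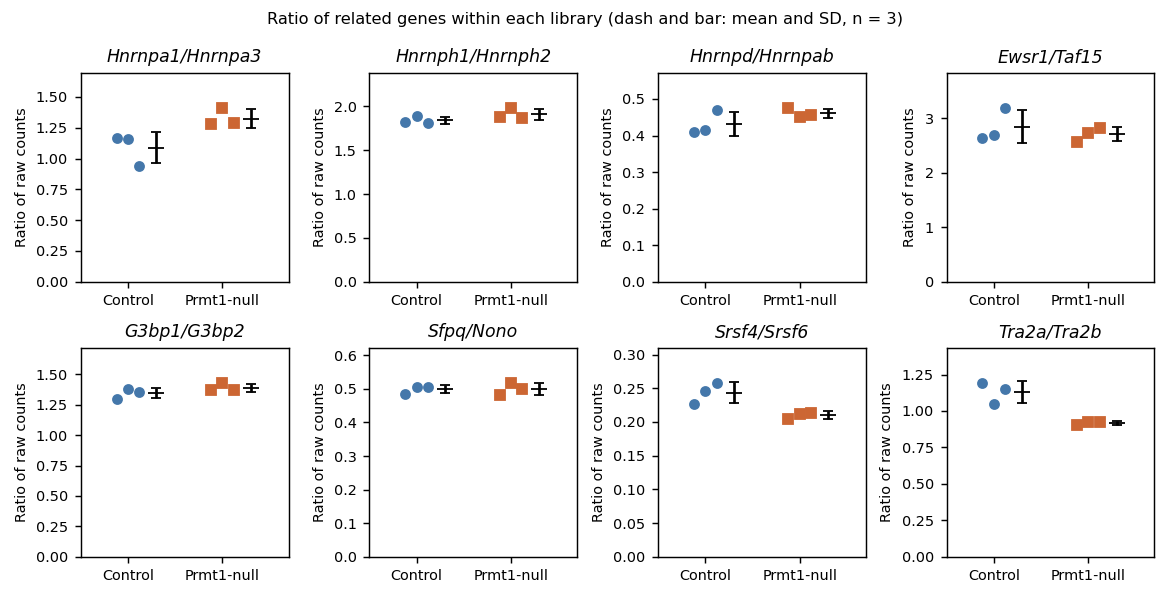
Ratio of raw counts (y axis, from 0) of 8 pairs of related genes in each library, with circles for Control, squares for Prmt1-null, and a dash and bar for mean and SD. Hnrnpa1/Hnrnpa3 is higher, and Srsf4/Srsf6 and Tra2a/Tra2b are lower, in every Prmt1-null library than in every Control library.

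The fold changes were also set beside the number of arginine motifs in the protein. The 28 genes with RGG in their protein had a median log2 fold change of −0.02 (range −0.25 to 0.45), and the 14 without had −0.02 (range −0.39 to 0.20). The 10 with 5 or more RGG ranged from −0.19 to 0.17. Of these 0 were called by edgeR, DESeq2 or limma-voom, beside 1.18% of all genes tested by edgeR. At an unadjusted p under 0.05, Hnrnpa3 was higher and Hnrnpr lower, beside 6.50% and 7.00% of all genes tested. The 12 proteins with at least 25 RS and SR dipeptides, which are Rbm15 and 11 SR proteins, had a median log2 fold change of −0.09, and 10 of the 12 had a negative value, with signs that turned in some alternative for Srsf2 and Srsf7. These are descriptions of the same fold changes and were not tested. By the annotation 11 of the 12 SR genes, Srsf10 being the exception, have a transcript marked for nonsense-mediated decay, beside 21 of all 42 genes and 28.2% of the 13052 tested protein-coding genes. Exon counts add up all transcripts of a gene, so the share of such transcripts was not measured here.

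Promoter sequence was at hand in RefSeq for 41 of the 42 genes, Khdrbs1 being the exception. In the 250 bases before the start site, searched on both strands, the GC box GGGCGG was found in 73.2% of the 41 genes, beside 61.0% of the 10254 tested genes with a promoter in the table and 35.4% of all 27025. The CCAAT box, spelled CCAAT, was found in 61.0% of the 41 genes, beside 40.3% of the tested and 37.5% of all genes, with 13 hnRNP, 8 FET and other RGG and 4 SR genes among them. The E-box CACGTG, the core site of MYC family proteins, was found in 9.76% of the 41 genes, beside 9.49% of the tested and 6.86% of all genes. These motifs do not overlap in their letters, and a match is a description and not a shown site. The promoters of Hnrnpa1, which rose, and of Tra2a, which fell, are shown with GC boxes and CCAAT boxes in capitals. Hnrnpa1 held 2 GC boxes and 4 CCAAT boxes, and Tra2a held 2 and 1.
Hnrnpa1, GRCm38.p6 chr15:103240147-103240396, plus strand: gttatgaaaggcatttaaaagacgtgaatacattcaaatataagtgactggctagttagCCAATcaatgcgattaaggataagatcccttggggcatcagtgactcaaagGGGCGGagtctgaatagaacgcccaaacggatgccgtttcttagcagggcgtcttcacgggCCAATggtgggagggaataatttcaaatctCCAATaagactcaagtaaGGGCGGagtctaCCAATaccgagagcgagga
Tra2a, GRCm38.p6 chr6:49264053-49264302, minus strand: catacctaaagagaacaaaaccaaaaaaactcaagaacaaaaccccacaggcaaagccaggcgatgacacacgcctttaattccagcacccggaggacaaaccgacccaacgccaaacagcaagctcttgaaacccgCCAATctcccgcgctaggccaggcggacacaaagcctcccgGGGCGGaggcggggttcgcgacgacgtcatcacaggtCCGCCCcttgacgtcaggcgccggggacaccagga

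Genes that work with these proteins were read from the same fit, in lists of related genes. Over all genes tested, edgeR called 216 of 18268 (1.18%), limma-voom 249 of 18268 and DESeq2 706 of 25706. Of 32 other hnRNP and RNA-binding proteins 0 were called by edgeR, 1 by limma-voom and 5 by DESeq2. At an unadjusted p under 0.05, 8 were higher and 5 lower, beside 6.50% and 7.00% of all genes tested. Their median log2 fold change was −0.01. Ncl, which encodes the RGG-bearing nucleolar protein nucleolin, had normalized counts of 12566, 13924 and 12570 in Control against 15623, 16927 and 15230 in Prmt1-null iGBs (log2 fold change 0.29, standard error 0.066, edgeR adjusted p = 0.0527). Hnrnph3, an hnRNP gene outside the 42, had 437, 655 and 457 in Control against 805, 801 and 681 in Prmt1-null iGBs (log2 fold change 0.56, edgeR adjusted p = 0.107). Both genes had groups without overlap. Over all alternatives the adjusted p of Ncl ran from 0.000763 (DESeq2) to 0.279, and limma-voom called it (adjusted p = 0.0323). It also passed in edgeR's test with sex as a covariate (adjusted p = 0.0324), GC and length trends removed (adjusted p = 0.0158) or no filter on low counts (adjusted p = 0.0011). That of Hnrnph3 ran from 0.00419 (edgeR with no filter on low counts) to 0.34, and it passed with DESeq2 (adjusted p = 0.0215) and, in edgeR's test, without Control replicate 2 (adjusted p = 0.0483).

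Of 39 tested genes of the core spliceosome 0 were called by edgeR or limma-voom and 1 by DESeq2, beside 1.18% of all genes tested by edgeR. At an unadjusted p under 0.05, 2 were higher and 2 lower, beside 6.50% and 7.00% of all genes tested. Their median log2 fold change was 0.02. Snrpf, which encodes an Sm ring protein, had 1135, 1022 and 632 in Control against 390, 594 and 608 in Prmt1-null iGBs (log2 fold change −0.81, standard error 0.204, edgeR adjusted p = 0.079). Its groups did not overlap, with Control replicate 3 close to the Prmt1-null libraries. Without that library the log2 fold change was −1.02 (edgeR adjusted p = 0.00727). Snrpf also passed with sex as a covariate (adjusted p = 0.0472), with DESeq2 (adjusted p = 0.00318) and in edgeR's test with no filter on low counts (adjusted p = 6.67e-07), and its highest adjusted p over all alternatives was 0.308. Snw1, which encodes a splicing and transcription cofactor, had 3938, 3933 and 3868 in Control against 4524, 4223 and 4439 in Prmt1-null iGBs (log2 fold change 0.17, edgeR adjusted p = 0.204).

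Of 19 tested kinases and relatives of SR proteins 1 was called by edgeR and by limma-voom and 4 by DESeq2, 1 higher and 3 lower. Over all genes tested, edgeR called 1.18%, limma-voom 249 of 18268 and DESeq2 706 of 25706. Luc7l, which encodes a protein of the U1 snRNP, rose from 2153, 2149 and 2109 in Control to 2977, 2900 and 2800 in Prmt1-null iGBs (log2 fold change 0.44, standard error 0.068, edgeR adjusted p = 0.00752). The gap between its groups was wider than the range within either, and without Prmt1-null replicate 1 or 2 the edgeR adjusted p was 0.0614 and 0.0586. In this list 1 gene was higher and 3 were lower at an unadjusted p under 0.05, beside 6.50% and 7.00% of all genes tested. The median log2 fold change of the list was −0.03. Of the 10 factors of nonsense-mediated decay 0 were called by edgeR, DESeq2 or limma-voom, beside 1.18% of all genes tested by edgeR. An unadjusted p under 0.05 was reached by 1 of them, as higher, beside 6.50% of all genes tested. That was Smg9, with 1314, 1384 and 1482 in Control against 1820, 1724 and 1480 in Prmt1-null iGBs (log2 fold change 0.26, edgeR adjusted p = 0.241), followed by Smg6, which encodes the endonuclease of the pathway, with 3356, 3196 and 3149 in Control against 2957, 3130 and 2764 in Prmt1-null iGBs (log2 fold change −0.13, edgeR adjusted p = 0.434).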

How the data were processed

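rRNA-depleted RNA libraries of 3 Control and 3 Prmt1-null iGB cultures, 1 per mouse, were sequenced by the authors, who trimmed reads (Trimmomatic 0.32), aligned them to mm10 (STAR 2.3.0e), kept primary alignments to at most 2 places and counted them on exons of Ensembl genes (featureCounts 1.4.4). The deposited values are these raw counts per gene, with no normalization or filter by the authors. The kit keeps strand, and the strand setting of the counting is not given in the sources used here.

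Groups came from the labels. With R 4.3.3 and edgeR 4.0.16, 398 genes of chromosome Y were left out, low counts removed (filterByExpr, minimum count 10), counts scaled by TMM and groups compared by the quasi-likelihood test with Benjamini-Hochberg adjustment over 18268 genes; this test gives every adjusted p named edgeR's. Normalized counts are counts scaled to the geometric mean library. A standard error is the log2 fold change over the square root of its F statistic. Alternatives were DESeq2 1.42.0 with its own filtering in place of the minimum count, limma-voom (limma 3.58.1), other size factors, no filter, no minimum mean, the replicate block, sex as a covariate, GC and length trends removed, and leaving out each library, with DESeq2 on the filtered genes, copies added and another length chosen after the data had been seen. Code was tested on simulated data.

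The members and lists were chosen with earlier results of these data known. Given with the value in every library are the genes called, the 5 smallest p and the highest and lowest level of each class, and the pairs whose ratios did not overlap; of other lists, the genes called or else the 2 smallest p. Coordinates, lengths and coding sequences come from GENCODE M21 (GRCm38), from which proteins were translated in place of RefSeq proteins, and promoters from RefSeq (GRCm38.p6). P-values measure the spread between these mice. Reads have no molecular identifiers, so PCR copies may be among them.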

Additional observations from a re-analysis of the deposited data

How the results depend on the processing

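The median log2 fold changes of the 3 classes kept their sign in every alternative, from 0.01 to 0.05 for the hnRNP, −0.05 to −0.0021 for the FET and other RGG and −0.13 to −0.06 for the SR genes. The count of members called was 3, 5 with DESeq2's Wald test, which was run with its own filtering on 25706 genes in place of 18268, 4 with the same test on the 18268 genes that passed edgeR's filter (chosen after seeing the data), and 4 with limma-voom, no filter on low counts, sex as a covariate, or GC and length trends removed. It ran from 0 to 5 when 1 library was left out, with 0 without Prmt1-null replicate 1 or 2. Members higher at an unadjusted p under 0.05 were 5 with GC and length trends removed in place of 3, and 2 to 4 when 1 library was left out. Those lower were 6, with 3 without Control replicate 2 and 10 without Control replicate 3. All genes called were 216, and 706 with DESeq2 and its own filtering, 746 with DESeq2 on the genes that passed edgeR's filter, 675 with no filter on low counts, 363 with GC and length trends removed, and from 31 (without Prmt1-null replicate 2) to 340 (without Control replicate 3) when 1 library was left out. Genes called in the other lists were 1, and 10, 10, 2, 6, 3 and 4 with DESeq2 by its own filtering, DESeq2 by edgeR's filter, limma-voom, no filter, sex as a covariate and GC and length trends removed, and 0 to 3 when 1 library was left out. The median level of the 42 genes per kilobase was 25.3 in Control iGBs by exon length and 53.9 by the transcript with the longest coding sequence, a length that is never the longer of these.

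Of the 42 members 14 changed sign in at least 1 alternative, with a smallest adjusted p of 0.698 at a turned sign. These 14 included Hnrnpa3 with pseudogene copies added (−0.0671), Safb with GC and length trends removed (−0.00690), and, when 1 library was left out, Safb (−0.0699 to 0.0957), Hnrnpab (−0.1003 to 0.0307) and Srsf2 (−0.0719 to 0.0111), all genes with no call. Of the 24 genes that the naming rule chose and that had no call, 13 had a log2 fold change that moved by over 1.5 times when 1 library was left out, and of the 5 it chose that were called, Prmt1 included, 0 did. The 13 were Ewsr1, Fmr1, Hnrnpab, Hnrnpf, Ilf2, Nono, Rbm15, Safb, Smg6, Srsf11, Srsf2, Srsf6 and Tra2b. The cause was not tested.

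Same-numbered libraries come from different mice, and their deviations correlated at −0.07, 0.05 and −0.08, so numbers do not pair the samples. With the replicate block 151 genes were called (81 higher, 70 lower), 3 of them members, Hnrnpa1, Srsf10 and Tra2a.

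With 3 mice a group, standard errors of members ran from 0.055 to 0.107 on the log2 scale, the smallest called difference was 0.39, and Srsf1, at −0.25, did not pass.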
